A study of Homo sapiens with 6 samples.

Results

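The 8 genes described here encode ER-phagy receptors: RETREG1, RETREG2, RETREG3, RTN3, CCPG1, ATL3, TEX264 and CALCOCO1. They were chosen by name, with RETREG1, RETREG2 and RETREG3 also known as FAM134B, FAM134A and FAM134C. All 8 were found among the 64299 identifiers of the count table, and all 8 passed the filter on low counts that left 16243 genes for testing. RNA was measured by stranded poly(A) sequencing in 6 libraries. The labels name the cells HEK293T and the series text HEK293, both of them transformed lines of embryonic kidney origin. In 3 libraries the cells had been transfected with a plasmid labelled ERbeta, and in 3 with the empty vector, EV_Ctrl. The labels do not define the ERbeta protein. It is read here, from general knowledge of the work, as an artificial β-sheet protein sent into the endoplasmic reticulum (ER) and not as estrogen receptor beta. Its own level was not analysed here. Both groups received lipid transfection reagent and DNA, the cells are a single transformed line, and cells that took up plasmid were measured together with those that did not.

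ER-phagy is the form of autophagy that delivers pieces of the ER to lysosomes. Its receptors sit in or dock on the ER membrane and carry short motifs that bind the ATG8 proteins (LC3 and GABARAP families) on the growing autophagosome, and several of them bend the membrane through reticulon-type hairpins. The route clears excess membrane and protein that is too aggregated for the proteasome.

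The ERbeta libraries held 13149304 to 16531368 counts and the EV_Ctrl libraries held 6833442 to 27101644, with EV_Ctrl 2 the deepest. EV_Ctrl 1 (6833442 counts) and EV_Ctrl 3 (10806375 counts) were the shallowest of all libraries. Levels are given in CPM, counts scaled to a common library size with TMM normalisation, and the 8 receptors together summed to 459.8 to 527.1 CPM in ERbeta and 483.1 to 509.9 CPM in EV_Ctrl. All 9 markers listed for the HEK293T line, among them NEFL, VIM and KRT18, averaged at least 1 CPM, with summed levels of 1703 to 1838 CPM in ERbeta and 1671 to 1790 CPM in EV_Ctrl. Of the markers of other cell types, 3 of 4 for fibroblasts averaged at least 1 CPM, COL1A1 reaching 31 CPM, with sums of 18.4 to 25.1 CPM in ERbeta and 22.9 to 34.0 CPM in EV_Ctrl. The 3 markers of endothelium summed to 0.261 to 0.618 CPM in ERbeta and 0.415 to 0.523 CPM in EV_Ctrl. Those of hepatocytes summed to 0.642 to 1.05 CPM in ERbeta and 0 to 0.226 CPM in EV_Ctrl, with TTR at 0 reads. The monocyte marker CD14 was at 0.963 to 2.21 CPM over the 6 libraries. The part of these markers in the results was not tested. The libraries differed in how log2 CPM depended on the GC content of the transcripts. Per 10 percentage points of GC, log2 CPM relative to the gene's mean changed by -0.07, -0.02 and -0.30 in ERbeta 1, 2 and 3 and by 0.24, -0.05 and 0.20 in EV_Ctrl 1, 2 and 3. EV_Ctrl 2 thus lay with ERbeta 1 and 2 on this measure, and the receptors are described with and without it.

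CCPG1 had the largest fold change among the 8. It encodes a membrane protein of the ER that binds both ATG8 proteins and FIP200, a scaffold of autophagosome formation, and its gene is known as a target of the unfolded protein response. Its level was 16.1, 16.5 and 20.2 CPM in ERbeta 1, 2 and 3, against 3.88, 15.6 and 4.88 CPM in EV_Ctrl 1, 2 and 3. The groups did not overlap, but EV_Ctrl 2 lay just under the lowest ERbeta library, while EV_Ctrl 1 and 3 were far below. EV_Ctrl 1 and 3 were also the shallowest libraries and the ones where log2 CPM rose with GC content. What set them apart was not tested. The mean of the ERbeta libraries was 4.54, 1.13 and 3.61 times the level in EV_Ctrl 1, 2 and 3. These levels rest on 252 to 260 reads per ERbeta library and on 28, 414 and 56 reads in EV_Ctrl 1, 2 and 3. With exact 95% Poisson intervals, which cover counting error only, EV_Ctrl 1 was at 2.58 to 5.61 CPM and EV_Ctrl 2 at 14.1 to 17.2 CPM. The gap between the control libraries is therefore larger than counting error. In bulk samples such as these, fewer cells carrying an mRNA and less of it per cell cannot be told apart.

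The ERbeta libraries averaged 17.6 ± 2.27 CPM of CCPG1 and the EV_Ctrl libraries 8.12 ± 6.503 CPM (SD, n = 3 each). The log2 fold change was 1.01 with a standard error of 0.46 and a 95% interval of -0.05 to 2.07, and the adjusted p over all genes was 0.401 in edgeR's quasi-likelihood test. Without EV_Ctrl 2 the log2 fold change was 1.99 ± 0.21 (SE) with an adjusted p of 7.79e-05 in the same test. Without EV_Ctrl 1 and 3 together it was 0.17. The size of the difference for CCPG1 therefore depends on which control libraries it is set against. CCPG1 lies on chromosome 15 (chr15:55340032-55408510, minus strand, GRCh38), where the readthrough gene DNAAF4-CCPG1 shares 3405 of its 8790 annotated exon bases on the same strand. That gene had 1 read in all 6 libraries together, and how the authors' counting treated reads falling in both genes was not given in the sources used here. PIGB shares 443 of its exon bases on the other strand.

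RETREG1 stood second. It was the earliest described mammalian ER-phagy receptor, a reticulon-type protein of ER sheets. Its level was 30.7, 26.2 and 36.7 CPM in ERbeta 1, 2 and 3, against 21.5, 29.3 and 19.2 CPM in EV_Ctrl 1, 2 and 3. As for CCPG1, EV_Ctrl 1 and 3 were the lowest, but here EV_Ctrl 2 lay inside the ERbeta range and the groups overlapped. ERbeta averaged 31.2 ± 5.298 CPM and EV_Ctrl 23.3 ± 5.26 CPM (SD, n = 3 each). The log2 fold change of 0.41 ± 0.20 (SE) had an adjusted p of 0.4085 in edgeR's test. Without EV_Ctrl 2 it was 0.63 ± 0.17 with an adjusted p of 0.0293 in the same test. Without EV_Ctrl 1 and 3 together it was 0.09. RETREG1 lies at chr5:16473038-16617058 on the minus strand, and its counts sum the transcripts of an upstream and an internal start, which were not told apart. The antisense gene AC022113.1 shares 408 of its exon bases and had 0 to 4 reads per library.

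The windows around the starts are shown for the pair with the highest fold changes and for RETREG2, the one receptor of those searched whose window held a motif. Each runs from 250 bases before the annotated start to 50 bases after it, 5′ to 3′ on the gene's strand, from RefSeq on GRCh38.p14. The CCPG1 window is chr15:55408310-55408609 (minus strand), those of RETREG1 are chr5:16616948-16617247 (upstream start) and chr5:16508949-16509248 (internal start, both minus strand), and that of RETREG2 is chr2:219178025-219178324 (plus strand). A second RETREG2 window, chr2:219178459-219178758, held none of the motifs and is not shown. Capitals mark the only core motif found.
CCPG1: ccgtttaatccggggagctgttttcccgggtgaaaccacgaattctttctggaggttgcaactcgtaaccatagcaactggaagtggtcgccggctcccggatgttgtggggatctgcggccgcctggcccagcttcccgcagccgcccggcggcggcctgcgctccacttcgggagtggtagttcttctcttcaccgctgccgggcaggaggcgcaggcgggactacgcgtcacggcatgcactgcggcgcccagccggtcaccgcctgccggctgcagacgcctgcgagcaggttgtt
RETREG1 upstream start: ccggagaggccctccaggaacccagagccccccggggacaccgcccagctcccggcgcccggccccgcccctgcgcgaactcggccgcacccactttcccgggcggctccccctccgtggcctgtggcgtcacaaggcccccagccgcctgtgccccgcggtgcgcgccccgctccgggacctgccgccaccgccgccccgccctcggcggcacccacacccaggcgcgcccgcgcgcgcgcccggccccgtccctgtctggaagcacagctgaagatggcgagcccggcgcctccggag
RETREG1 internal start: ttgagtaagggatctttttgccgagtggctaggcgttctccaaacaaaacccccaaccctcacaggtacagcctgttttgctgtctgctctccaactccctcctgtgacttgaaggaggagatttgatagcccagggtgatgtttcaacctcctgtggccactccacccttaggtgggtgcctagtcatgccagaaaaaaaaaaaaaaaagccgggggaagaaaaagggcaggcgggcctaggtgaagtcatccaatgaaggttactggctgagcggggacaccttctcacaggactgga
RETREG2: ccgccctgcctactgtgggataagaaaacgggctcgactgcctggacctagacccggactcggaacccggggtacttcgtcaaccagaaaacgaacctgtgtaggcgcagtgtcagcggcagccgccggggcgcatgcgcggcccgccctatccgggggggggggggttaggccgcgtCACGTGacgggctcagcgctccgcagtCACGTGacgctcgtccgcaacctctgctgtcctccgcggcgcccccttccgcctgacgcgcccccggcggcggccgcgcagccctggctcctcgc

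The GC content of these windows was 66.0% for CCPG1, 80.3% and 52.0% for the upstream and internal starts of RETREG1, and 71.7% for RETREG2. A window was found for 7 of the 8 receptors, 10 windows in all, and CALCOCO1 had none. On both strands, the search covered CACGTG (the core read by TFEB and TFE3, factors of autophagy and lysosome genes), TGATGNAA (the core of the ATF4 and CHOP element), TGACGTGG (the core of the unfolded protein response element), CCAAT and CCACG 9 bases apart (the ER stress element) and GTAAACA (the FOXO core). CACGTG was in the RETREG2 window at 72 and 45 bases before the start (positions -72 and -45), each time with GT before it and AC after it, the form called the CLEAR element. Among all 35116 windows of this length, 7.26% held CACGTG and 0.353% the CLEAR form. The other motifs were in 0 of the 10 windows, and in 3.62% (ATF4 and CHOP), 0.729% (unfolded protein response element), 0.0769% (ER stress element) and 3.42% (FOXO) of all windows. A match describes the letters and no binding was measured.

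**Figure D1:**
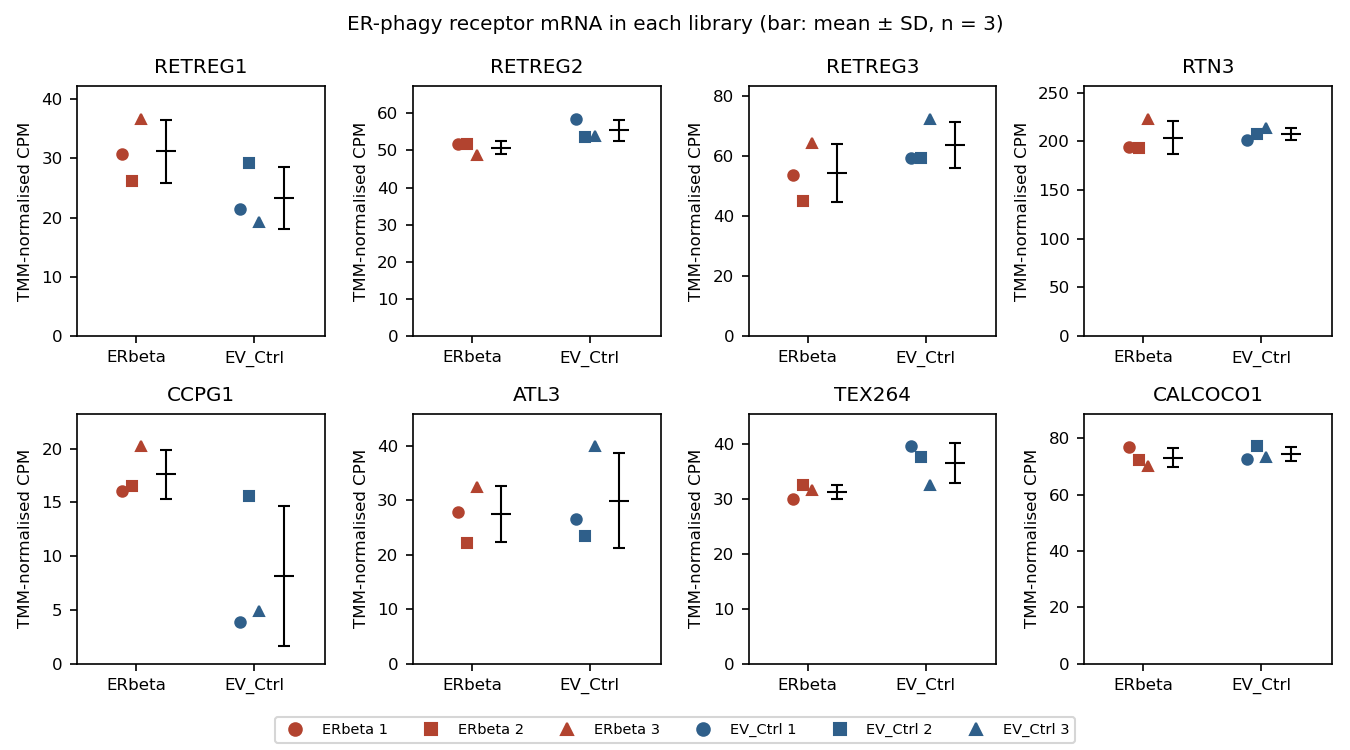
Level of each ER-phagy receptor mRNA in TMM-normalised CPM (vertical axis, from 0, one scale per panel) in the 3 ERbeta and 3 EV_Ctrl libraries, with the mean ± SD of each group beside the points. For CCPG1, EV_Ctrl 2 sits at 15.6 CPM beside the ERbeta libraries while EV_Ctrl 1 and 3 are at 3.88 and 4.88 CPM.

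RETREG2 and RETREG3, the other members of the RETREG1 family, were slightly lower in ERbeta without passing the test. RETREG2 was at 51.8, 51.8 and 48.8 CPM in ERbeta 1, 2 and 3, against 58.6, 53.7 and 53.9 CPM in EV_Ctrl 1, 2 and 3. All ERbeta libraries lay under all EV_Ctrl libraries, with a narrow gap. Its log2 fold change was -0.12 ± 0.10 (SE), with a 95% interval of -0.36 to 0.11 and an adjusted p of 0.593 in edgeR's test. RETREG3 was at 53.6, 44.8 and 64.2 CPM in ERbeta 1, 2 and 3, against 59.2, 59.3 and 72.4 CPM in EV_Ctrl 1, 2 and 3. ERbeta 3 lay above EV_Ctrl 1 and 2, so the groups overlapped. The log2 fold change of RETREG3 was -0.23 ± 0.16, with an adjusted p of 0.531 in edgeR's test. RETREG2 is at chr2:219176225-219185479 (plus strand) and shares 291 exon bases with CNPPD1 on the other strand, and RETREG3 is at chr17:42579513-42610623 (minus strand) and shares 139 with TUBG1, also on the other strand.

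RTN3 and ATL3 act at ER tubules. RTN3 is a reticulon whose long isoform is an ER-phagy receptor, and ATL3 is a GTPase that fuses tubules and binds the GABARAP proteins. RTN3 was at 194.5, 193.5 and 223.3 CPM in ERbeta 1, 2 and 3, against 201.3, 207.4 and 213.6 CPM in EV_Ctrl 1, 2 and 3. ERbeta 3 was the highest and ERbeta 1 and 2 the lowest of the 6 libraries. The log2 fold change was -0.03 ± 0.10 (SE), and as a linear ratio its 95% interval was 0.838 to 1.152. The count is for the gene, so the long isoform was not told apart from the short ones. ATL3 was at 27.8, 22.2 and 32.3 CPM in ERbeta 1, 2 and 3, against 26.5, 23.5 and 39.9 CPM in EV_Ctrl 1, 2 and 3. The groups overlapped widely, with replicate 2 the lowest and replicate 3 the highest of each. Its log2 fold change was -0.12 ± 0.23, with a 95% interval of -0.65 to 0.41, and without EV_Ctrl 3 it was 0.14. Both genes are on chromosome 11, RTN3 at chr11:63681446-63759891 (plus strand) and ATL3 at chr11:63624087-63671921 (minus strand).

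TEX264 and CALCOCO1 have no reticulon hairpin. TEX264 is a single-pass ER membrane protein reported to account for much of the ER-phagy in starved cells, and CALCOCO1 is a soluble receptor that docks on the ER proteins VAPA and VAPB. TEX264 was at 29.8, 32.4 and 31.5 CPM in ERbeta 1, 2 and 3, against 39.5, 37.5 and 32.48 CPM in EV_Ctrl 1, 2 and 3. The groups did not overlap, though EV_Ctrl 3 lay just above the highest ERbeta library. ERbeta averaged 31.2 ± 1.296 CPM and EV_Ctrl 36.5 ± 3.62 CPM (SD, n = 3 each), and the log2 fold change of TEX264 was -0.22 ± 0.12 (SE) with an adjusted p of 0.441 in edgeR's test. CALCOCO1 was at 76.8, 72.4 and 70.04 CPM in ERbeta 1, 2 and 3, against 72.7, 77.1 and 73.5 CPM in EV_Ctrl 1, 2 and 3. Its root mean square spread over the 6 libraries was 0.05 on the log2 scale, the smallest of the 8 receptors, where CCPG1 had 0.92. The SD of CALCOCO1 was 4.71% of the mean in ERbeta and 3.16% in EV_Ctrl, and that of CCPG1 was 12.9% in ERbeta and 80.1% in EV_Ctrl. Its log2 fold change was -0.03 ± 0.10 with a 95% interval of -0.25 to 0.20. TEX264 is at chr3:51662693-51704323 (plus strand), sharing 184 exon bases with RAD54L2 on its own strand, and CALCOCO1 is at chr12:53708517-53727745 (minus strand).

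Over the 8 receptors, 2 log2 fold changes were positive and 6 negative, with a median of -0.08, while 7841 of all 16243 genes were positive and their median was -0.01. In edgeR's quasi-likelihood test with adjustment over all genes, 0 of the 8 passed the threshold of 0.05, as did 0% of all genes, the smallest adjusted p among all genes being 0.13. At an unadjusted p under 0.05 there were 0 receptors in either direction, against 9.54% of all genes higher and 2.88% lower in ERbeta. The groups did not overlap for CCPG1 upward (10.2% of all genes) and for RETREG2 and TEX264 downward (8.48% of all genes). DESeq2, run on the same counts, called 0 of the 8 and 0.438% of the genes with an adjusted p. It put CCPG1 at a log2 fold change of 1.09 with an adjusted p of 0.283. Of the 8 receptors, 0 passed in the authors' deposited table, against 3.78% of the genes with an adjusted p. The authors' deposited table gives CCPG1 a log2 fold change of 0.39 (SE 0.18) with an adjusted p of 0.154, and RETREG1 0.33 with 0.116. Why its CCPG1 value and SE are smaller than those of the fits here was not tested, so the sizes are not directly comparable. For TEX264 the authors' deposited table gives -0.21 with an adjusted p of 0.139. The 8 receptors had the same sign there as in edgeR.

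Leaving out EV_Ctrl 2 changed the calls. In that fit 13.5% of all genes were called higher and 0.775% lower in ERbeta, and of the receptors CCPG1 and RETREG1 were called higher and none lower. EV_Ctrl 2 was the highest control for both CCPG1 and RETREG1, so leaving it out raises both fold changes by construction. Leaving out any other single library gave 0 called receptors and 0 called genes, with 604 to 1449 genes higher at an unadjusted p under 0.05. CCPG1 was then at a log2 fold change of 0.73 to 1.08 and RETREG1 at 0.28 to 0.53.

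Receptor fold changes were also set against transcript GC content, because the libraries differed in it. Over all genes the log2 fold change sank by 0.23 (slope -0.23) per 10 percentage points of GC. The longest transcripts of CCPG1 (38.2% GC), ATL3 (40.1%), RETREG1 (41.2%) and RTN3 (42.4%) are poor in GC, and those of CALCOCO1 (52.1%), RETREG2 (52.3%), RETREG3 (52.8%) and TEX264 (54.7%) are richer. Among 2168 genes of 35% to 40% GC the quartiles of the log2 fold change were 0.22 and 0.68, and CCPG1 at 1.01 lay above them. Among 3478 genes of 40% to 45% GC the quartiles were -0.01 and 0.33, with RETREG1 above them and RTN3 and ATL3 below. RETREG1 is near the GC-poor end of this range, and with quartiles drawn between bin centres it lies at the upper edge. Among 2591 genes of 50% to 55% GC they were -0.20 and 0.02, with RETREG2 and CALCOCO1 between them and RETREG3 and TEX264 below. The 4 GC-poor receptors thus did not share a direction.

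**Figure D2:**
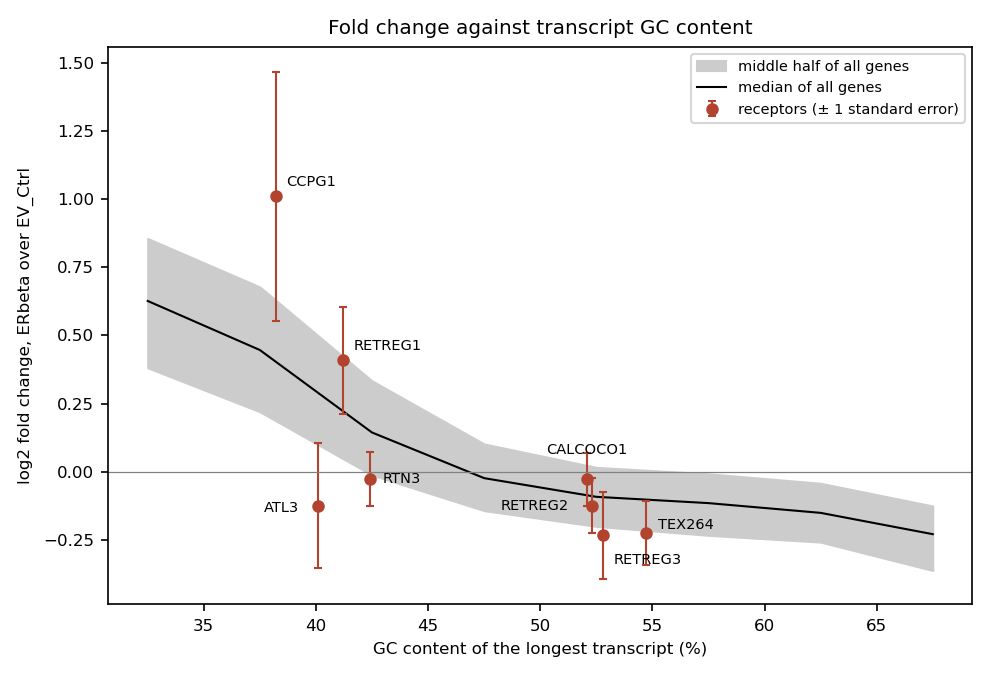
Log2 fold change of ERbeta over EV_Ctrl (vertical axis) against GC content of the longest transcript in percent (horizontal axis). Red points are the 8 receptors with ± 1 standard error, the line is the median of all genes in bins of 5 percentage points and the grey band spans the quartiles. CCPG1 lies above the band drawn between bin centres, RETREG1 lies at its upper edge, and ATL3 and RTN3 lie below it.

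A correction that removed each library's GC trend lowered CCPG1, RETREG1, ATL3 and RTN3 and raised the other 4 receptors. CCPG1 was then at 0.67 ± 0.30 (SE), RETREG1 at 0.20 ± 0.13 and ATL3 at -0.45 ± 0.24. RTN3 was at -0.16 and RETREG3 and TEX264 at -0.07 and -0.06, while RETREG2 and CALCOCO1 turned to 0.02 and 0.11. The median of all genes also rose, from -0.01 to 0.05, so RETREG2 stayed below it. In edgeR's test with this correction 0 of the 8 were called, against 0.137% of all genes. With the correction and without EV_Ctrl 2, CCPG1 was called higher at 1.39 ± 0.17 (edgeR adjusted p = 0.000249) and ATL3 lower at -0.71 ± 0.16 (adjusted p = 0.0130), where 9.17% of all genes were called higher and 2.14% lower. RETREG1 was at 0.32 with an adjusted p of 0.148 in that edgeR fit and was no longer called. CCPG1 was thus the one receptor called without EV_Ctrl 2 both before and after the correction. For CCPG1, EV_Ctrl 2 was the highest control, at 15.6 CPM against 3.88 and 4.88 CPM in EV_Ctrl 1 and 3. For RETREG1, EV_Ctrl 2 was also the highest control, at 29.3 CPM against 21.5 and 19.2 CPM in EV_Ctrl 1 and 3. For ATL3 it was the lowest, at 23.5 CPM against 26.5 and 39.9 CPM. Leaving EV_Ctrl 2 out therefore raises the fold changes of CCPG1 and RETREG1 and lowers that of ATL3 by construction. These calls are no independent support for a difference.

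**Figure D3:**
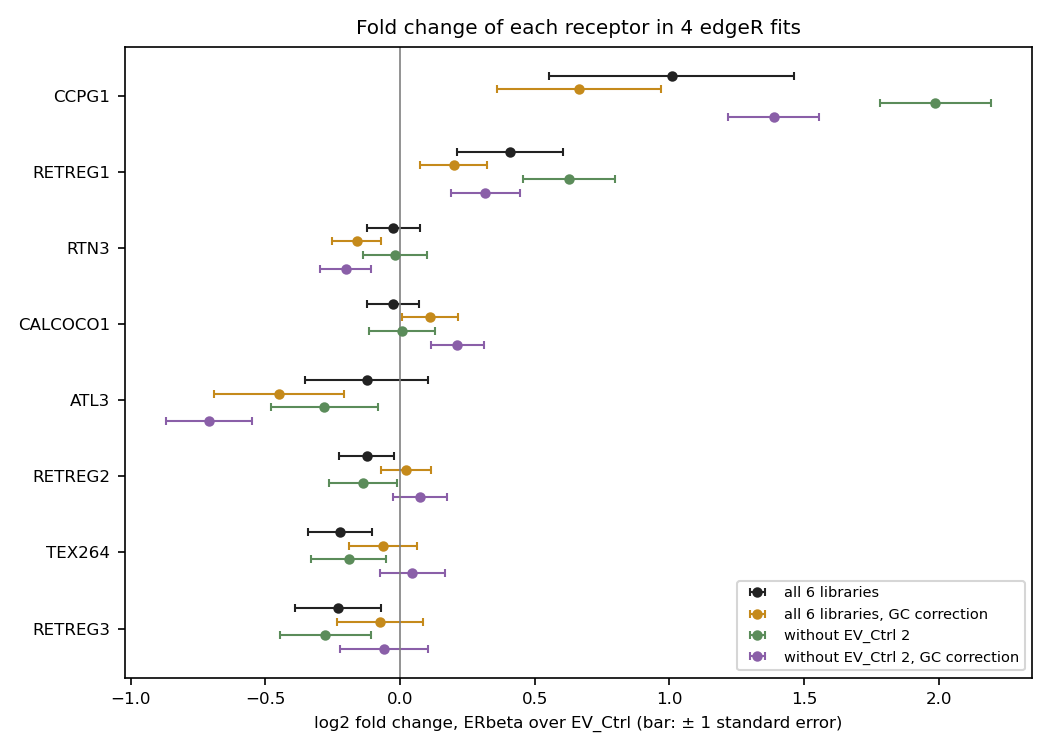
Log2 fold change of ERbeta over EV_Ctrl (horizontal axis) for each receptor in 4 edgeR fits, with and without GC correction and with and without EV_Ctrl 2, with bars of ± 1 standard error. CCPG1 is above 0 in all 4 fits, from 0.67 to 1.99, and ATL3 moves from -0.12 to -0.71.

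Levels were compared between the receptors as CPM per kb of annotated exon. RTN3 was at 35.2 ± 2.92 CPM per kb in ERbeta and 35.8 ± 1.06 CPM per kb in EV_Ctrl, above all others in all 6 libraries. RETREG3, RETREG2 and CALCOCO1 followed with means over the 6 libraries of 11.4, 9.33 and 8.29 CPM per kb, then RETREG1 and TEX264 with 5.97 and 5.96, ATL3 with 3.78 and CCPG1 with 1.46. From RETREG3 down to ATL3 the ranges of neighbours overlapped over the 6 libraries. RETREG1 was above TEX264 in 3 libraries, which are ERbeta 1, 2 and 3, and below it in the 3 EV_Ctrl libraries. The gap was small in ERbeta 2, at 5.732 for RETREG1 and 5.691 for TEX264. It was also small in EV_Ctrl 2, at 6.405 and 6.602 CPM per kb. Over all annotated exons CCPG1 was the lowest in each library, at 2.003 ± 0.26 CPM per kb in ERbeta and 0.92 ± 0.74 in EV_Ctrl. Over the 5385 exon bases not shared with DNAAF4-CCPG1 its level would be 3.27 ± 0.42 CPM per kb in ERbeta and 1.51 ± 1.21 CPM per kb in EV_Ctrl. On that length CCPG1 would lie above ATL3 in ERbeta 2, at 3.07 CPM per kb for CCPG1 and 2.92 for ATL3, and below it in the other 5 libraries. These levels use all annotated exons in GENCODE 29, so a gene with many optional exons comes out low.

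**Figure D4:**
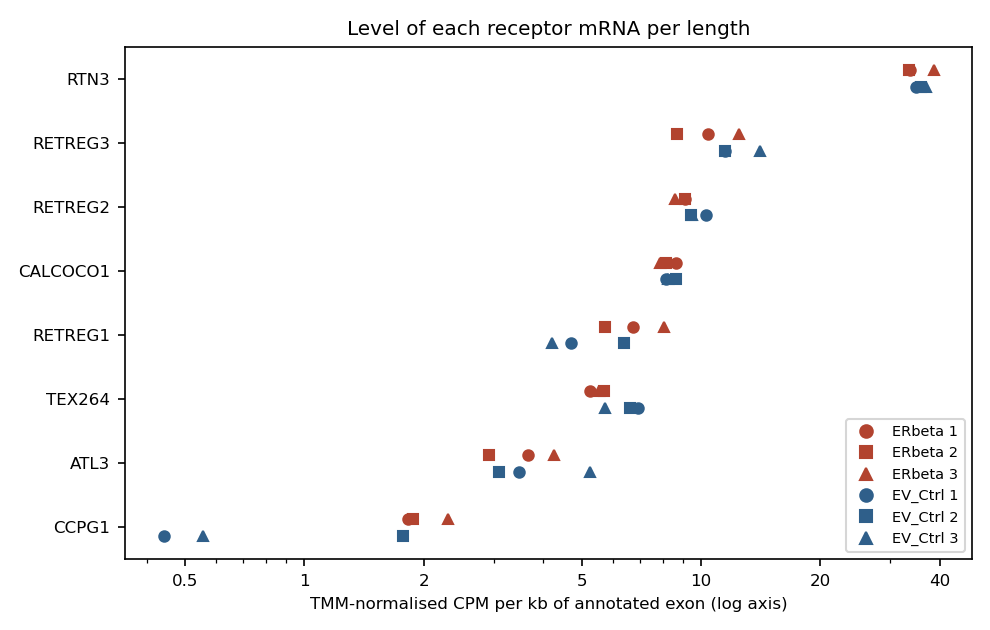
TMM-normalised CPM per kb of annotated exon (horizontal axis, log scale) for each receptor, ERbeta libraries above EV_Ctrl libraries. RTN3 lies between 33.4 and 38.6 and CCPG1 between 0.44 and 2.30 CPM per kb.

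The machinery that the receptors bind was measured beside them. Of the ATG8 family 5 of 7 genes were tested, since MAP1LC3B2 and MAP1LC3C were too low. Of these 3 were positive and 2 negative, the median being 0.04 on the log2 scale, and 0 passed. For GABARAPL1 the ERbeta libraries averaged 82.7 ± 4.64 CPM and the EV_Ctrl libraries 76.7 ± 1.18 CPM (SD, n = 3 each), with no overlap, and the log2 fold change was 0.11. MAP1LC3A was at -0.20 and GABARAPL2 at -0.05. At an unadjusted p under 0.05, where 9.54% of all genes were higher in ERbeta, there were 0 of 5 ATG8 genes, 1 of 9 initiation genes, 2 of 7 paralogs and 4 of 13 partners and cofactors, all of them higher in ERbeta.

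Among 9 genes of autophagosome initiation 0 passed, 6 were positive and the median log2 fold change was 0.06. RB1CC1, which encodes FIP200, the partner of CCPG1, was at 103, 99.99 and 143 CPM in ERbeta 1, 2 and 3, against 19.8, 102 and 18.9 CPM in EV_Ctrl 1, 2 and 3. EV_Ctrl 2 lay inside the ERbeta range and the other controls far below, and the RB1CC1 transcript has a GC content of 37.6%. Its log2 fold change was 1.28 ± 0.62 (SE) with an adjusted p of 0.4095 in edgeR's test, and it was 0.96 after GC correction. PIK3C3, the lipid kinase VPS34, was at 0.49, and at 0.10 after GC correction. ATG14, a subunit of the same kinase complex, was at -0.21 and at -0.22 after GC correction.

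Of 7 paralogs of the receptors 5 were positive and 0 passed, with a median log2 fold change of 0.15. For ATL2, an atlastin like ATL3, ERbeta averaged 109 ± 5.04 CPM and EV_Ctrl 82.85 ± 15.1 CPM (SD, n = 3 each). Its log2 fold change of 0.40 became 0.01 with GC correction. TAX1BP1, a relative of CALCOCO1, was at 198, 196 and 237 CPM in ERbeta 1, 2 and 3, against 90.1, 200.4 and 83.0 CPM in EV_Ctrl 1, 2 and 3. This was again low in EV_Ctrl 1 and 3 alone. TAX1BP1 had a log2 fold change of 0.75, and 0.81 after GC correction, at a transcript GC content of 48.0%. RTN2 was at 0.18.

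Of 13 other ER-phagy receptors, partners and cofactors 9 were positive and 0 passed, with a median of 0.42, or 0.17 after GC correction. UFM1, the modifier attached to ER-bound ribosomes, was at 0.72 (0.15 after GC correction). CANX, the lectin chaperone that links misfolded procollagen to RETREG1, was at 1041, 912 and 1377 CPM in ERbeta 1, 2 and 3, against 771, 867 and 827 CPM in EV_Ctrl 1, 2 and 3. For CANX no control reached the ERbeta libraries, and its log2 fold change was 0.43 ± 0.16 (0.23 after GC correction). ARL6IP1, a reticulon-type partner of RETREG1, was at 0.42 (0.23 after GC correction). SEC62, an ER-phagy receptor of recovery from stress chosen for mention with its values known, had 102, 102 and 144 CPM in ERbeta 1, 2 and 3, against 29.7, 100.3 and 28.9 CPM in EV_Ctrl 1, 2 and 3. Its log2 fold change was 1.11 ± 0.47 (SE), or 0.71 after GC correction, with an adjusted p of 0.397 in edgeR's test without correction. Of 6 MiT/TFE and FOXO factors, which drive autophagy genes, 5 were tested and 0 passed, 3 of them positive, with MITF at 0.28, TFEB at -0.15 and FOXO3 at 0.08.

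The unfolded protein response genes HSPA5, HERPUD1 and DDIT3 differed from CCPG1 in where EV_Ctrl 2 lay. With DNAJB9 as the fourth, 0 of 4 passed without GC correction. All 4 were higher in ERbeta at an unadjusted p under 0.05 in edgeR's test, against 9.54% of all genes. HSPA5, the ER chaperone BiP, was at 870, 877 and 888 CPM in ERbeta 1, 2 and 3, against 530, 536 and 501 CPM in EV_Ctrl 1, 2 and 3. Here EV_Ctrl 2 lay with the other controls. The ERbeta mean was 1.66, 1.64 and 1.75 times EV_Ctrl 1, 2 and 3 for HSPA5, and for DDIT3, the factor CHOP, it was 1.66, 1.70 and 1.89 times. HERPUD1 likewise had all 3 controls low, at 38.2, 29.8 and 34.7 CPM, against 57.1 to 88.0 CPM in ERbeta. DNAJB9 was at 20.9 CPM in EV_Ctrl 2, between the other controls (11.5 and 13.3 CPM) and ERbeta (30.7 to 37.8 CPM). After GC correction HSPA5, HERPUD1 and DDIT3 were called in edgeR's test, with adjusted p of 0.0339, 0.0415 and 0.0339. In that fit 0.137% of all genes were called. DNAJB9 was not called, at an adjusted p of 0.0768 in the same test, nor was CCPG1, at 0.463.

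**Figure D5:**
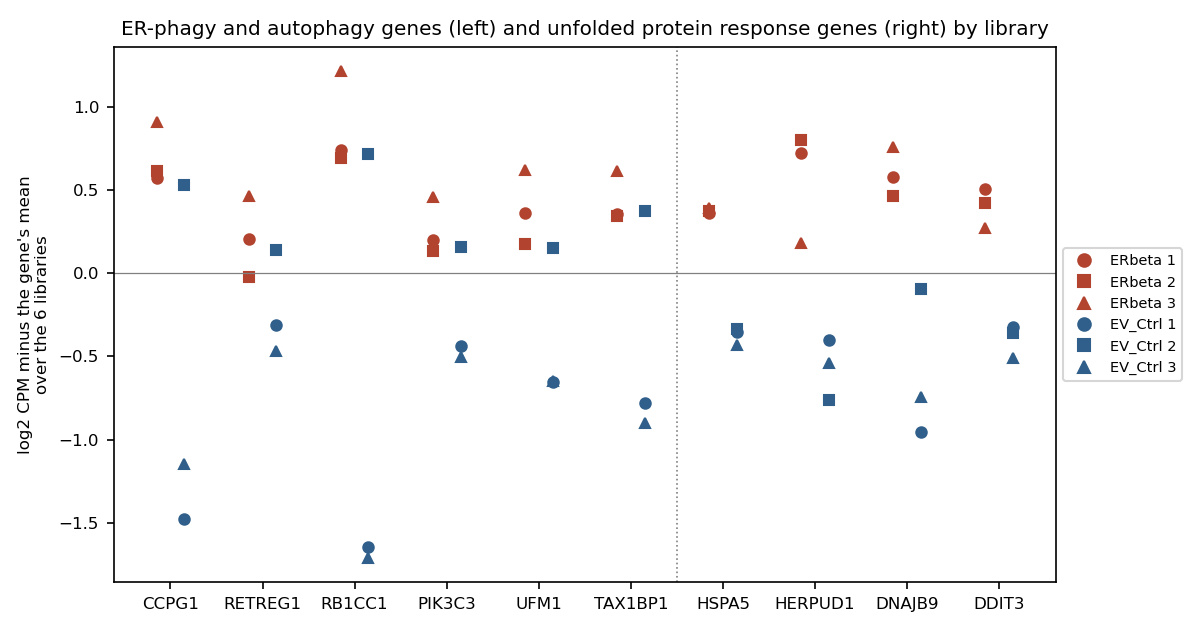
Log2 CPM of each gene minus its mean over the 6 libraries (vertical axis). Left of the dotted line are ER-phagy and autophagy genes, right of it unfolded protein response genes. The genes on the left were picked from the lists and do not stand for all of them. For RTN3, not drawn, the ERbeta mean was 1.01, 0.98 and 0.95 times EV_Ctrl 1, 2 and 3, and for GABARAP 1.03 times each. EV_Ctrl 2 (blue square) lies among the ERbeta libraries for RB1CC1, PIK3C3 and TAX1BP1 and just below them for CCPG1, and with the other controls for HSPA5, HERPUD1 and DDIT3.

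The genes whose pattern over the 6 libraries was most like that of each receptor were found by the root mean square difference of log2 CPM, each centred on its own mean, among 11168 genes. SLK and ZNF148 were nearest to CCPG1, at 0.08 for each, where CCPG1 itself spread by 0.92 around its mean. Their transcripts have GC contents of 40.2% and 35.6%, and their log2 fold changes were 1.12 and 1.19. MED21 and MFSD8 were nearest to RETREG1, at 0.04 for each, with transcripts of 36.8% and 36.5% GC. FAAP24 and AIFM2 were nearest to RETREG2, PTGFRN and OTULIN to RETREG3, ISY1 and ALDH1A2 to RTN3, TULP4 and MARVELD2 to ATL3, RABIF and TSPAN4 to TEX264, and PAXIP1 and OTUD5 to CALCOCO1, at 0.02 to 0.05. CALCOCO1 itself spread by only 0.05 around its mean, so its neighbours are flat genes more than genes of a shared pattern. Between receptors, RETREG2 and CALCOCO1 were the closest at 0.08. That is no smaller than their own spreads of 0.08 and 0.05, so it shows 2 nearly flat genes and no shared pattern. The receptor nearest to CCPG1 was RETREG1, at 0.66. The points behind each value are the same 6 libraries, which also differ in depth and GC trend.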

How the data were processed

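The authors' deposited count table holds unnormalised read counts for 6 libraries under versioned Ensembl identifiers. The submitters' processing notes name DESeq2, featureCounts, TopHat2 and hg38, and versions, annotation and strand setting were not given in the sources used here. A second deposited table holds the authors' comparison, per the file headers with a mean signal (normalised count), log2 fold changes with standard errors, a Wald score, and p-values. Its fold changes had the sign of ERbeta over EV_Ctrl for 98.4% of genes above 5 CPM. It had no part in any test.

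Symbols were matched by identifier without version (56105 identifiers), and positions, exon lengths and GC content come from GENCODE 29 (GRCh38). Genes were filtered with filterByExpr (minimum count 10, minimum total 15), scaled by TMM and tested across all genes with edgeR 4.0.16 (glmQLFit, glmQLFTest) in R 4.3.3, group as the only term, with Benjamini-Hochberg adjustment and a threshold of 0.05. Standard errors come from the F statistic. Alternatives used DESeq2 1.42.0 and limma 3.58.1. The GC correction fitted log2 CPM to GC content by loess (span 0.5) in each library and used the curve as an offset (16091 genes). The steps were tested on simulated counts. These had the same dispersion for every gene and library, so they do not cover the uneven noise among the EV_Ctrl libraries. Whether replicates were separate cultures is not in the labels. The p-values therefore reflect only variation among these libraries, possibly technical. No replicate pair agreed within counting noise (chi-square per degree of freedom 4.81 to 38.8). Members and lists were chosen with earlier results of these data known. Named genes were the 8 receptors, the 3 lowest p-values per list, HSPA5, HERPUD1, DNAJB9 and DDIT3, and the 2 nearest patterns per receptor. SEC62 was added outside this rule.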

Additional observations from a re-analysis of the deposited data

How the results depend on the processing

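The count of genes passing the threshold was 0 with all 6 libraries, and also 0 with DESeq2 size factors, library size only, 1 CPM in all libraries, robust empirical Bayes, an adjusted p under 0.01, counts thinned to the lowest total, the replicate block with or without GC correction, and without both EV_Ctrl 1 and 3 (the lone control is then assumed to vary like ERbeta). It was 51 without a filter on low counts, 71 with DESeq2's test, 1 with limma-voom, 22 with GC correction, 0 to 2324 leaving out each library (2324 without EV_Ctrl 2) and 1821 with GC correction and EV_Ctrl 2 left out. Of 152 receptor values under alternatives, 135 kept their direction and their side of the threshold, 4 passed it and 13 changed sign. RETREG2 was at 0.0213 with GC correction, 0.0232 with replicate block and GC correction, and 0.0727 with GC correction and without EV_Ctrl 2. CALCOCO1 was at 0.11, 0.12 and 0.21 in the same fits, and TEX264 at 0.0459 in the last. The median of all genes was 0.0464, 0.0479 and 0.0877 in these fits, so RETREG2 and TEX264 stayed below it despite the change of sign. Leaving out each library, CALCOCO1 ranged over -0.0746 to 0.0074, RTN3 over -0.0956 to 0.0173 and ATL3 over -0.28 to 0.14, and ATL3 was at 0.23 without both EV_Ctrl 1 and 3. The cause was not tested. With library size only the median of all genes was -0.10, and CCPG1 was at 0.95 and TEX264 at -0.32. Whether the replicate numbers mark a shared culture or day is not known. Correlations of same-numbered deviations were 0.23, -0.14 and -0.15, and those of unlike-numbered ones ran from -0.37 to 0.36. With 3 libraries per group that also differ in GC trend, these values cannot decide it. With the replicate block CCPG1 was at 1.29 with 0 genes called. The standard error of CCPG1 was 0.46 with all libraries, 0.42 without EV_Ctrl 1, 0.21 without EV_Ctrl 2 and 0.46 without EV_Ctrl 3.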
